A study of Mus musculus with 7 samples.

Results

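The Nestin region is the stretch of mouse chromosome around Nes, the gene for an intermediate filament protein of neural progenitors, as it was captured by 5C (chromosome conformation capture carbon copy). It was made up of every line of the deposited contact table that names Nestin as its region, 9486 of 86767 fragment pairs, or 10.9%. The pairs join 93 forward and 102 reverse fragments, 195 in all, and every pair holds 1 of each kind. The table gives the distance within each pair but no chromosome coordinates. Fragments were therefore placed by their mutual distances, with position 0 at the assayed fragment of lowest number, and the placement missed no distance by more than 0.547 bp. The rebuilt region spanned 1086 kb, with a median of 4.42 kb between neighbouring assayed fragments. Its largest gap lay between 881 and 905 kb. Neither the orientation of the region nor the position of Nes within it could be determined here. Fragments are called by primer kind and number, so that FOR108 is the fragment read by forward primer 108.

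In 5C, cross-linked chromatin is cut, fragments that lay close together in the nucleus are ligated, and chosen forward and reverse primers count each ligation product. Contact counts fall steeply with distance along the chromosome. On top of that fall, chromosomes are folded into domains whose fragments meet each other more often than fragments of the next domain, and the edges of domains are called boundaries. Many boundaries in mammalian cells hold CTCF and cohesin, and contacts within and across domains are known to change during differentiation. Nes is widely used as a marker of neural progenitors.

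The cells compared were 2 libraries of neural progenitor cells (NPCs) and 2 libraries of the V6.5 embryonic stem (ES) cells from which the NPCs were derived. V6.5 is a male line of the mixed strain background 129SvJae x C57BL/6, so both cell types share 1 genotype and neither carries an engineered allele in the labels. NPCs were derived through embryoid bodies cultured for 4 days without LIF. They were then selected for 5 to 7 days in serum-free medium and grown for 2 to 4 days with Fgf2. ES cells were grown on feeder fibroblasts with LIF and then passaged on gelatin to lose the feeders. Both cell types were fixed in 1% formaldehyde. No measurement in these files bears on the purity of either culture. Nothing in the labels says that the numbered libraries are separate cultures, and p-values here reflect only how far these libraries spread, which may be technical.

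The Nestin region received 1235505 and 3306107 reads in the 2 NPC libraries, against 874061 and 430290 reads in the 2 ES libraries. These were 7.77% and 7.75% of all NPC reads, against 8.14% and 5.22% of all ES reads, and a two-sided exact permutation test gave p = 1, where 2 against 2 libraries cannot go below 0.333. Without the 3 pairs with most reads in the whole table the shares turned to 9.67% and 10.6% in the NPC libraries, against 11.7% and 11.2% in the ES libraries, with no overlap (exact permutation p = 0.333). Despite their greater depth, NPC libraries left more Nestin pairs without a read, 24.0% and 26.0%, against 13.1% and 15.7% in ES libraries. The other regions showed the same direction, with 18.3% and 21.8% in the NPC libraries, against 10.7% and 13.0% in the ES libraries. Of the 9486 pairs, 449 had no read in any library, 5810 had reads in all 4, and 5070 reached a mean of 10 reads and were tested. NPC replicate 2 stood apart. Over the tested pairs, the Pearson correlation of its log2 scaled counts was 0.75 with NPC replicate 1, 0.61 with ES replicate 1 and 0.53 with ES replicate 2, while the 2 ES replicates reached 0.91 with each other. NPC replicate 1 correlated about as well with ES replicate 1, at 0.74, as with the other NPC library. Once distance and primer effects were removed, NPC replicate 1 reached 0.32 with NPC replicate 2. It reached 0.38 with ES replicate 1 and 0.36 with ES replicate 2, for which NPC replicate 2 reached 0.28 and 0.24. The 2 ES replicates then reached 0.69 with each other. Boundary contrasts, described below, correlated at 0.96 between NPC libraries and 0.97 between ES libraries. Across cell types they correlated at 0.79 to 0.83. The pair correlations are across 5070 pairs that share primers and distances, and describe the libraries only. Several results are also given with 1 library left out, though not every named pair or bin is.

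The first comparison asked where contacts cross less often than distance and primer efficiency predict, and whether those places differ between NPCs and ES cells. A residual was computed for each pair and library as log2(count + 1) minus a smooth curve of distance and minus the median effect of both primers. For a given position, the boundary contrast takes the average residual of pairs that stay on 1 side and subtracts the average residual of pairs that reach across, among pairs with both ends within 120 kb. A positive contrast means that contacts across the position were fewer, for their distance and primers, than those beside it.

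The strongest boundary of the region was present in all 4 libraries. At 790 kb the contrast was 0.84 and 0.92 in the NPC libraries, against 1.01 and 0.86 in the ES libraries, and at 810 kb it was 0.83 and 1.08 in the NPC libraries, against 0.96 and 0.86 in the ES libraries. The groups overlapped at both places. NPC minus ES was −0.06 ± 0.07 (SE) at 790 kb, with a limma adjusted p of 0.468, and 0.04 ± 0.07 at 810 kb, with a limma adjusted p of 0.647. In reads, the 240 pairs spanning 810 kb had medians of 25.5 and 31.5 in the NPC libraries, against 33.0 and 21.5 in the ES libraries. The 243 pairs on either side had medians of 145.0 and 194.0 in the NPC libraries, against 193.0 and 108.0 in the ES libraries, though at a shorter median distance of 33.3 kb against 117 kb for spanning pairs. A second boundary shared by both cell types lay at 400 kb, where the contrast was 0.38 and 0.41 in the NPC libraries, against 0.42 and 0.38 in the ES libraries.

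In limma's test of NPC minus ES, the contrast differed at 56 of the 101 Nestin positions, or 55.4%, beside 52.8% of the positions of all large regions, so the number of changed positions was close to that of the whole table. Neighbouring positions share pairs and are not independent. NPCs had the higher contrast at 26 positions and the lower at 30. The largest difference lay at 140 to 290 kb, where all 16 positions in a row had a higher contrast in NPCs. Of these, 11 were called without ES replicate 1, 14 without ES replicate 2 and 10 at a reach of 80 kb. Its peak was at 250 kb, with a contrast of 0.43 and 0.59 in the NPC libraries, against −0.04 and −0.01 in the ES libraries. Contacts across 250 kb were thus fewer than those beside it in NPCs, and about as frequent in ES cells. NPC minus ES was 0.53 ± 0.07 (SE), with a limma adjusted p of 2.08e-07. In limma, the spread at a position is drawn partly from all other positions. Many of these share pairs, so p-values of contrasts can be too small. The difference was 0.45 to 0.61 with any 1 library left out and 0.76 with the authors' own ratio of raw to predicted reads, and it was called in each of these settings. At 250 kb, the mean residual of spanning pairs was −0.28 and −0.40 in the NPC libraries, against 0.029 and 0.014 in the ES libraries. Pairs on either side averaged 0.14 and 0.18 in the NPC libraries, against −0.0085 and 0.0024 in the ES libraries. In both parts of the contrast the NPC and ES libraries did not overlap.

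After the stretch at 140 to 290 kb, the longest runs of lower contrast in NPCs were at 500 to 560 kb and at 320 to 370 kb. At 540 kb the mean contrast was −0.70 in NPCs and −0.39 in ES cells, and at 340 kb it was −0.50 in NPCs and −0.18 in ES cells. A negative value means that contacts across a position were more frequent, for their distance and primers, than those beside it. At the right edge of the strong boundary, at 830 to 860 kb, NPCs had the higher contrast again, with a mean of 0.77 in NPCs and 0.45 in ES cells at 840 kb and a difference of 0.32 ± 0.08 (SE, limma adjusted p = 0.00116). A local maximum at 440 kb stood at 0.55 and 0.47 in the NPC libraries, against 0.35 and 0.20 in the ES libraries (difference 0.23 ± 0.07, SE, limma adjusted p = 0.00591), and was not called without ES replicate 2 (0.15, limma adjusted p = 0.198). The difference at 840 kb was called without NPC replicate 1, at 0.49, but not without NPC replicate 2, at 0.15, nor without either ES library. That at 540 kb was not called without ES replicate 2 (−0.25, limma adjusted p = 0.0555), while that at 340 kb was called with any 1 library left out. With the authors' ratio in place of the residuals, 36 of 101 positions had a higher contrast in NPCs and 1 a lower. Over all large regions, 295 of 657 positions were called in either direction with that ratio. The largest loss, −0.35 at 80 kb, was 0.058 with it. The call at 80 kb was also lost without ES replicate 1 or ES replicate 2 (limma adjusted p of 0.0947 and 0.0769), and without NPC replicate 2 the difference there was −0.21. Without ES replicate 1, NPCs had the higher contrast at 12 positions and the lower at 6, and without ES replicate 2 the higher at 14 and the lower at 5.

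**Figure D1:**
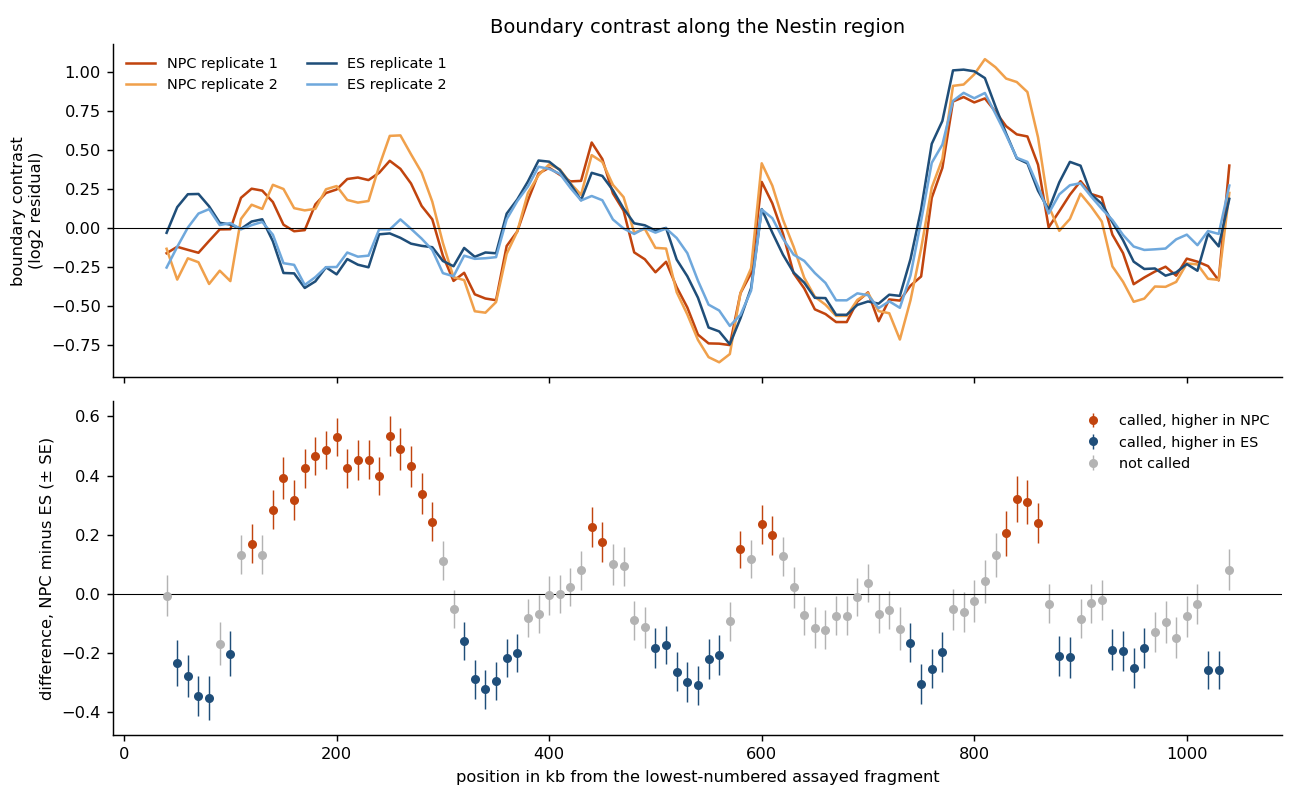
Boundary contrast (upper panel, log2 residual) in each library and its difference NPC minus ES with SE (lower panel) at positions every 10 kb. All 4 libraries peak near 790 to 810 kb, and both NPC libraries lie above both ES libraries around 250 kb, where the difference is 0.53.

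The next question was whether single fragments gained or lost contact as a whole. Reads were summed over all pairs of a fragment and compared with edgeR's quasi-likelihood test, with Benjamini-Hochberg adjustment over the fragments of all regions. Of the 195 fragments, 97 were called, or 49.7%, beside 46.9% over all regions. Summed contacts were higher in NPCs for 59 fragments, or 30.3% beside 27.3%, and higher in ES cells for 38, or 19.5% beside 19.7%. These shares are near those of the whole table.

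In several stretches, called blocks here, most called fragments had the same direction, while other stretches were mixed. At 360 to 420 kb, 4 of 12 fragments gained contact in NPCs and 4 lost it. Between 120 and 180 kb, none of 10 fragments gained contact in NPCs and 6 lost it. Between 240 and 360 kb, 13 of 25 fragments gained contact in NPCs and 1 lost it. Between 540 and 780 kb, 18 of 45 gained contact in NPCs and 3 lost it. Between 780 and 900 kb, on and to the right of the strong boundary, 2 of 20 gained contact in NPCs and 10 lost it. The limits of these blocks were set after the values were seen, on a 60 kb grid, and the counts are a description. The direction of the 540 to 780 kb block depended on scaling: with library totals it held 5 fragments in each direction, and with scaling to Nestin reads 10 gained and 14 lost contact in NPCs. At 240 to 360 kb, 6 gained and 2 lost contact in NPCs with library totals, and 8 gained and 5 lost with Nestin totals. The balance of the blocks of losses did not turn with scaling. At 120 to 180 kb, 0 fragments gained and 6 lost contact in NPCs with library totals, and 0 gained and 8 lost with Nestin totals. At 780 to 900 kb, 0 gained and 9 lost with library totals, and 1 gained and 12 lost with Nestin totals. The counts also depended on single libraries. At 120 to 180 kb, 2 fragments were called as losses without ES replicate 1 and 1 without ES replicate 2. At 780 to 900 kb, 6 were called as losses without ES replicate 1. Gains at 240 to 360 kb numbered 5 without NPC replicate 2 and 8 without ES replicate 2, and gains at 540 to 780 kb numbered 5 without either of these. Over the region, leaving out NPC replicate 2 or ES replicate 2 lowered the number of called fragments to 54 and 44.

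FOR108, at 365 kb, had the largest gain. It had 19820 and 79042 reads in the NPC libraries, against 3086 and 846 reads in the ES libraries. Scaled to the depth of the smallest library, these were 10716 and 22530 in NPCs, against 2063 and 846 in ES cells, so the lower NPC value was over the higher ES value. The log2 fold change was 3.51 ± 0.51 (SE), with an edgeR adjusted p of 6.07e-10. Its single largest pair, with REV109 at 5.33 kb, held 57.2% of its reads, but the change was of similar size over pairs more than 20 kb apart, at 3.22.

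A second group of gains lay at 48 to 67 kb. FOR021, at 66.9 kb, had 10811 and 52453 reads in the NPC libraries, against 2431 and 986 reads in the ES libraries, a log2 fold change of 2.99 ± 0.46 (SE, edgeR adjusted p = 4.5e-09). REV020, at 65.9 kb, had 16596 and 64354 reads in the NPC libraries, against 4167 and 1717 in the ES libraries. FOR021 and REV020 are 946 bp apart and share their largest pair, so they are not separate evidence. Over pairs more than 20 kb apart their log2 fold changes were 1.99 and 1.84. FOR017, at 47.7 kb, had 2260 and 12985 reads in the NPC libraries, against 549 and 302 reads in the ES libraries. Further along, FOR176 at 656 kb and REV168 at 609 kb rose by log2 2.43 and 2.44, with edgeR adjusted p of 7.47e-08 and 9.24e-08. The log2 fold changes of all 6 named gains were lowest without NPC replicate 2, where FOR176 was at 1.5, FOR017 at 1.88 and FOR108 at 2.90.

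Of the fragments higher in ES cells, REV207 at 826 kb had the lowest p. It had 2056 and 1445 reads in the deeper NPC libraries, against 9530 and 3940 reads in the ES libraries. Scaled, these were 1112 and 412 in NPCs, against 6371 and 3940 in ES cells. The log2 fold change was −2.76 ± 0.41 (SE, edgeR adjusted p = 1.27e-09). REV216 at 853 kb, FOR221 at 866 kb and REV230 at 910 kb lay close to it, with log2 fold changes of −2.39, −2.18 and −2.71. FOR221 was no longer called without ES replicate 1 (edgeR adjusted p = 0.0667). Outside this stretch, FOR144 at 521 kb had 1277 and 1469 reads in the NPC libraries, against 5084 and 3761 in the ES libraries, a log2 fold change of −2.69 ± 0.42 (SE, edgeR adjusted p = 8.54e-09). REV012 at 18.1 kb fell by 2.88 on the log2 scale, and 75.3% of its reads came from 1 pair 3.51 kb away. All 97 called fragments kept their direction over pairs more than 20 kb apart, and 90 of them were called there too.

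**Figure D2:**
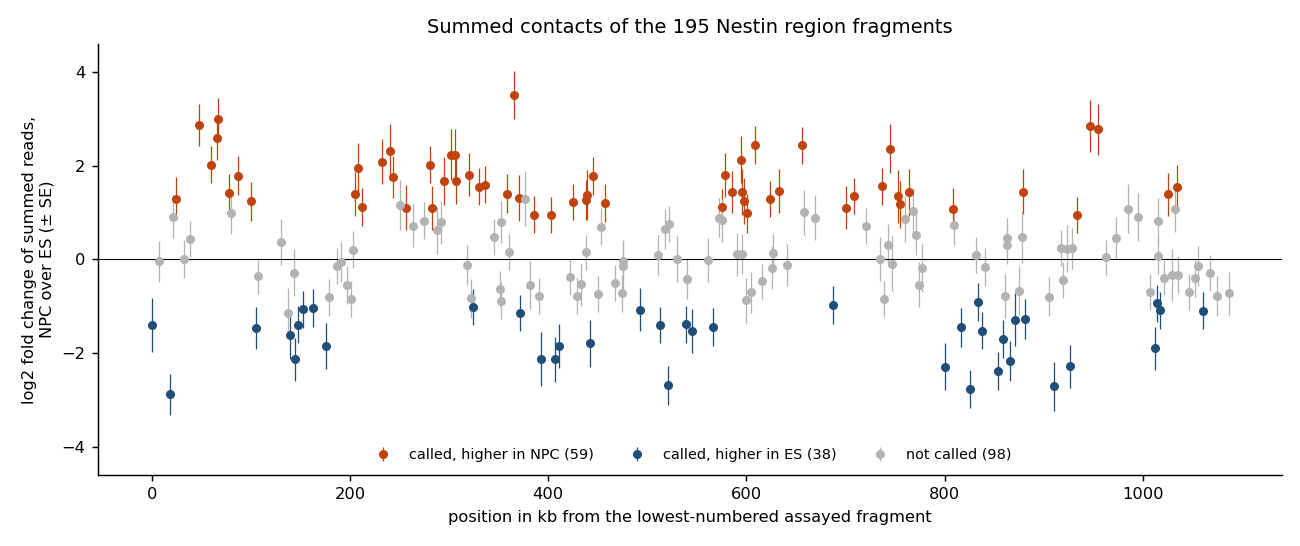
Log2 fold change, NPC over ES, of the summed reads of each of the 195 fragments (points, with SE) against position in kb. Gains and losses alternate along the region, with losses at 120 to 180 kb and 780 to 900 kb and the largest gain, 3.51, at 365 kb.

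Averaging residuals over 60 kb by 60 kb windows asks which pairs of stretches met more or less often once the overall level of each fragment had been taken out. Of 187 windows with at least 4 pairs, limma called 7, or 3.74%, beside 7.33% over all regions. NPCs were higher in 3 and lower in 4. The loss between 120–180 kb and 240–300 kb had the lowest p of these. Over its 54 pairs the mean residual was −0.69 and −0.77 in the NPC libraries, against 0.08 and 0.10 in the ES libraries, a difference of −0.82 ± 0.10 (SE, limma adjusted p = 0.0364). The window beside it, 120–180 kb with 300–360 kb, stood at −0.53 and −0.51 in the NPC libraries, against 0.06 and −0.08 in the ES libraries (difference −0.51 ± 0.10, SE, limma adjusted p = 0.0482). Both windows span 180 to 240 kb and so hold pairs that enter the contrast across that stretch. By contrast, contacts of 180–240 kb with 240–300 kb averaged −0.06 in NPCs and −0.12 in ES cells and did not pass the test (limma adjusted p = 0.759).

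Gains were seen near the start of the region and at long range. Contacts within 60–120 kb averaged 0.88 and 1.58 in the NPC libraries, against −0.16 and −0.19 in the ES libraries, and those of 0–60 kb with 60–120 kb averaged 0.76 and 1.58 in the NPC libraries, against −0.27 and −0.11 in the ES libraries. These windows hold 16 and 36 pairs, and their limma adjusted p values were 0.0463 and 0.0486. In summed reads, the first had 12555 and 47691 in the NPC libraries, against 4751 and 1472 in the ES libraries. The gain of 0.59 between 120–180 kb and 840–900 kb rests on few reads, 86 and 76 in the NPC libraries, against 58 and 47 in the ES libraries over 58 pairs, and in the edgeR test of summed reads the log2 fold change was −0.34. The remaining losses were within 420–480 kb, at −0.54, and between 240–300 kb and 660–720 kb, at −0.90. The first was at 0.0088 and the second at 0.22 when summed reads were tested. With only distance taken out of the residuals they were −0.30 and 0.43, and neither passed the test. No window was called without either ES library, with the replicate block or with the authors' ratio. In those 4 settings, limma gave 19, 22, 38 and 51 windows with an unadjusted p under 0.05, and edgeR on summed reads called 65 windows.

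Windows across the strong boundary were low in both cell types. Contacts of 720–780 kb with 840–900 kb averaged −1.11 and −1.45 in the NPC libraries, against −0.98 and −0.87 in the ES libraries, over 89 pairs. Contacts within 840–900 kb averaged 0.44 and 0.51 in the NPC libraries, against 0.83 and 0.73 in the ES libraries. Neither difference passed the test, with limma adjusted p of 0.129 and 0.16.

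**Figure D3:**
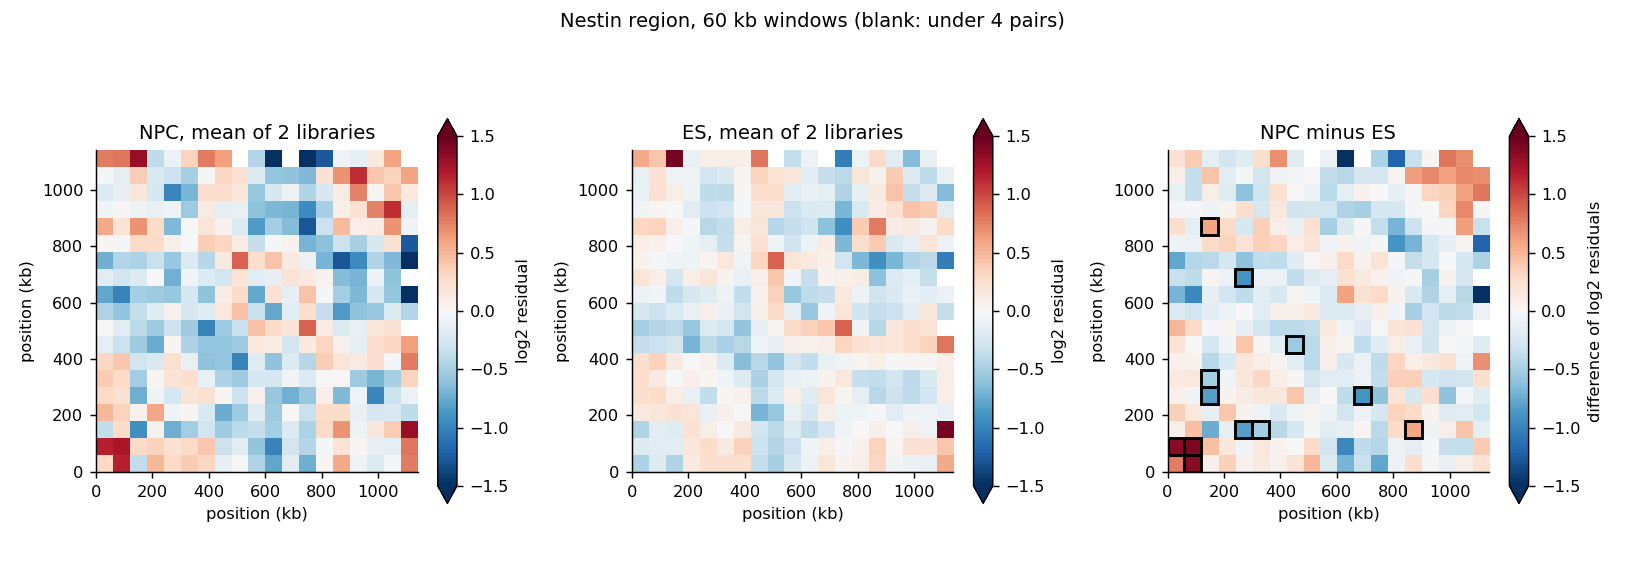
Mean log2 residual of 60 kb by 60 kb windows in NPCs, in ES cells and their difference, NPC minus ES, with the 7 called windows outlined in black. The low block between 720–780 and 840–900 kb appears in both cell types, and the called losses at 120–180 kb with 240–360 kb appear in the difference.

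At the level of single pairs, edgeR called 350 of 5070, or 6.90%, beside 7.22% over all regions. Contacts were higher in NPCs for 195 pairs, or 3.85% beside 4.90%, and higher in ES cells for 155, or 3.06% beside 2.33%. The lowest adjusted p was 0.0225. The median distance was 132 kb for called pairs higher in NPCs and 88.8 kb for those higher in ES cells. The 5070 tested pairs had a median of 175 kb. By distance, the share called higher in NPCs was 8.40% under 20 kb, 2.10% at 200–400 kb and 7.69% over 800 kb (4 of 52). For calls higher in ES cells these shares were 7.12%, 1.96% and 0%. Shares by distance were not computed for the other regions, so whether they are particular to Nestin was not tested. Called pairs also had more reads, with a median mean of 363 and 80.75, against 47.75 for tested pairs. Scaling moved the balance of directions, from 55.7% of calls higher in NPCs to 36.0% with library totals and 28.2% with Nestin totals. The number of calls depended on the libraries, with 22 without ES replicate 1, 4 without ES replicate 2, 2614 without NPC replicate 1 and 539 without NPC replicate 2. Of the 350 calls, 20, 4, 349 and 274 were made again in these settings, none in the other direction.

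Of the 195 fragments, 160 had at least 1 called pair. The 20 fragments with most calls, picked for that, held 234 of 700 called-pair ends, or 33.4%, and 12.7% of the ends of tested pairs. For 16 of these 20 all calls had 1 direction. FOR108 was first, with 18 of 62 tested pairs called, all higher in NPCs. Its called partners lay between 60 and 700 kb, to both sides, and 40 of its 44 uncalled pairs also had a positive log2 fold change, with a median of 2.02. FOR129 at 439 kb had 16 of 91 pairs called, all higher in NPCs. These 16 pairs had 34546 and 85544 reads in the NPC libraries, against 3152 and 1423 reads in the ES libraries. Its 75 uncalled pairs had a median log2 fold change of 0.37. FOR223 at 875 kb had the most called pairs higher in ES cells, 17 of 63 tested. These 17 pairs had 1145 and 1530 reads in the NPC libraries, against 9084 and 3913 reads in the ES libraries. Summed over all its pairs, FOR223 was not called (log2 fold change −0.67 ± 0.53, SE, edgeR adjusted p = 0.301). REV236 at 927 kb and FOR144 at 521 kb had 15 called pairs each, all higher in ES cells, and all their uncalled pairs, 28 and 29, also had a negative log2 fold change. When the effect of each fragment in each library was entered as an offset, 0 pairs were called by edgeR and 0 by limma, with 1039 and 1055 pairs at an unadjusted p under 0.05. This setting was chosen after the data had been seen.

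Among called pairs with reads in every library, the one with the lowest p was FOR257 with REV162, 430 kb apart. It had 976 and 2344 reads in the NPC libraries, against 21 and 9 reads in the ES libraries, a log2 fold change of 5.67 ± 0.61 (SE, edgeR adjusted p = 0.0225). Its neighbours did not share this level. The median of the 8 pairs formed with the adjacent assayed fragments was 6.5 and 35.5 reads in the NPC libraries, against 18.0 and 14.5 in the ES libraries, and none of the 5 tested was called. FOR074 with REV187, 505 kb apart, had 513 and 631 reads in the NPC libraries, against 2 and 4 reads in the ES libraries, a scaled ratio of ES over NPC of 0.011 with an exact 95% interval of 0.004 to 0.025. That interval covers counting error only, because amplified copies of 1 ligation product are counted separately. FOR244 with REV079, at 721 kb the longest of the 8 named gains, had 249 and 542 reads in the NPC libraries, against 7 and 4 reads in the ES libraries. The 8 named gains spanned 14.5 to 721 kb and log2 fold changes of 4.65 to 6.48, and 4 of their 38 tested neighbour pairs were called.

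Of the 8 named pairs higher in ES cells, 4 joined FOR223 at 875 kb to fragments between 800 and 910 kb. FOR223 with REV207, 49.4 kb apart, had 67 and 57 reads in the NPC libraries, against 1648 and 506 reads in the ES libraries (log2 fold change −4.95 ± 0.72, SE, edgeR adjusted p = 0.024). FOR223 with REV216, 21.7 kb apart, had 128 and 147 reads in the NPC libraries, against 1470 and 816 reads in the ES libraries. The pairs with REV207 and REV216 lie within 780 to 900 kb, on and to the right of the strong boundary. Summed contacts of 10 of the 20 fragments there were higher in ES cells. FOR223 with REV230 reaches 910 kb, and FOR223 with REV203 joins 800 to 875 kb, across 810 kb. FOR223 itself was not among the fragments called. FOR097 with REV197, 423 kb apart, had 10 and 11 reads in the NPC libraries, against 156 and 83 reads in the ES libraries. The authors' deposited score, a standard normal quantile that is capped at 4.26, was at its cap in both ES libraries for this pair and was 0.21 and −0.84 in the NPC libraries. FOR125 with REV258, 601 kb apart, had 1 read in each NPC library, against 52 and 75 reads in the ES libraries. Its scaled ratio of ES over NPC was 136, with an exact 95% interval of 37.0 to 1138 for counting error.

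A few far pairs stood above expectation in every library. The strongest over 100 kb was FOR165 with REV258, 430 kb apart, with 4697 and 20191 reads in the NPC libraries, against 8029 and 21762 reads in the ES libraries. Its mean residual was 8.14 in NPCs and 8.79 in ES cells, and its log2 fold change was −1.71 ± 0.86 (SE, edgeR adjusted p = 0.225). The median of its 8 neighbour pairs was 5.5 and 6.0 reads in the NPC libraries, against 21.5 and 17.5 in the ES libraries. FOR013 with REV220, 842 kb apart, had 308 and 728 reads in the NPC libraries, against 220 and 291 reads in the ES libraries, and the median of its neighbour pairs was 0 in all 4 libraries. FOR200 with REV053 had 835 and 464 reads in the NPC libraries, against 1814 and 2289 in the ES libraries, and FOR257 with REV075 had 3312 and 7166 reads in the NPC libraries, against 690 and 182 in the ES libraries. Neither passed the test, with edgeR adjusted p of 0.068 and 0.0503. The authors' score was at its cap for 18 and 11 Nestin pairs in the NPC libraries, against 10 and 12 pairs in the ES libraries, and for 5 pairs in all 4. All of these were over 100 kb apart, as are most pairs of the region, whose median distance was 307 kb.

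**Figure D4:**
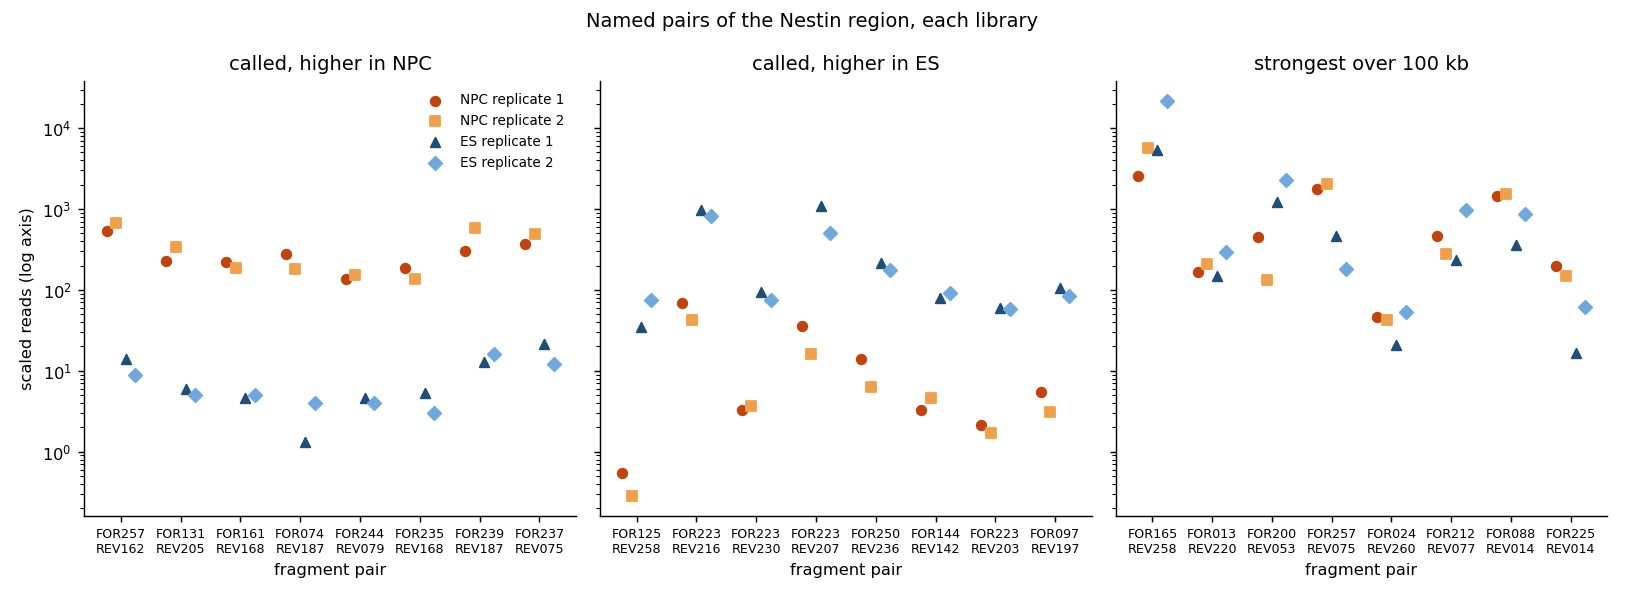
Reads scaled to the smallest library (log axis) of the named pairs in each of the 4 libraries, for 8 called gains, 8 called losses and the 8 strongest pairs over 100 kb. NPC and ES points are separate for called pairs, and FOR165 with REV258 is high in all 4 libraries.

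The last comparison asked at which distances contacts differed in amount. Reads summed per distance bin were higher in NPCs in 3 of 8 Nestin bins, beside 55.8% of the bins of all regions called in either direction. At 20–50 kb the 490 pairs had 222 and 299 scaled reads per pair in the NPC libraries, against 171 and 128 in the ES libraries, a log2 fold change of 0.80 ± 0.29 (SE, edgeR adjusted p = 0.0158). At 600–800 kb they had 7.43 and 8.60 in the NPC libraries, against 4.42 and 5.49 in the ES libraries, a log2 fold change of 0.69 ± 0.17 (SE, edgeR adjusted p = 0.000487). Over 800 kb they had 2.91 and 3.22 in the NPC libraries, against 1.59 and 2.44 in the ES libraries, a log2 fold change of 0.61 ± 0.22 (SE, edgeR adjusted p = 0.0158). All 3 calls depend on the scaling: none held with library totals or Nestin totals, and at 600–800 kb the log2 fold change was −0.0058 with Nestin totals. Without NPC replicate 2, edgeR called 0 bins, with 1 at an unadjusted p under 0.05.

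The 400–600 kb bin had a log2 fold change of −0.34 ± 0.18 (SE), but 1 pair decided its sign. FOR165 with REV258 alone held 13.0% and 23.4% of the bin's reads in the NPC libraries, against 28.1% and 59.2% in the ES libraries. Without it the log2 fold change was 0.32 ± 0.15 (SE, edgeR adjusted p = 0.0674). With the pair kept and scaling to Nestin totals, the bin was called higher in ES cells, at −1.09 (edgeR adjusted p = 0.0285).

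The slope of log10 scaled reads on log10 distance between 10 and 1000 kb was −1.14 and −1.19 in the NPC libraries, against −1.11 and −1.07 in the ES libraries. Both NPC slopes were steeper than both ES slopes, by 0.08 on average, and the two-sided exact permutation test gave p = 0.333, the smallest it can give. With a pseudocount of 5 the slopes were −0.77 and −0.81 in the NPC libraries, against −0.79 and −0.76 in the ES libraries, so that the groups overlapped (exact permutation p = 0.667). Over pairs with reads in every library the difference was −0.05, and between 50 and 500 kb it was −0.15. Steeper slopes in NPCs were not particular to Nestin. Between 10 and 1000 kb the difference was −0.03 in the Klf4 region, −0.10 in Oct4 and −0.14 in Olig1-Olig2. It was −0.11 in Sox2 and −0.36 in the gene desert, but 0.12 in Nanog-V2.

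**Figure D5:**
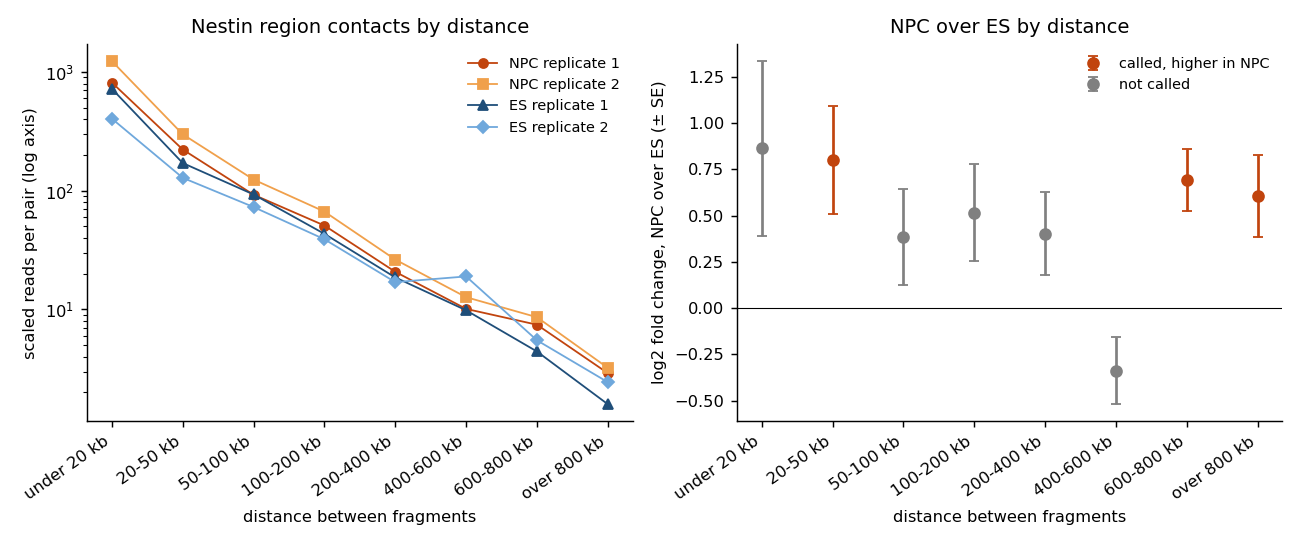
Scaled reads per pair (left, log axis) in each library and log2 fold change, NPC over ES, with SE (right) by distance between fragments. Reads per pair fall with distance in all libraries except ES replicate 2 at 400–600 kb, and 3 bins are called higher in NPCs.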

How the data were processed

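Contacts were counted by 5C in 2 NPC and 2 ES libraries. The authors deposited raw read counts per fragment pair and library, not normalized, a ratio of raw reads to a predicted signal, and a score. Distances within pairs were deposited beside them. Bowtie is named, per the submitters' processing notes; the genome build and model of the 5C table are not given in the sources used here. In the table, 12 per-sample columns and both deposited peak lists were not used, because the fragments have no coordinates here.

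Counts were tested with edgeR 4.0.16 in R 4.3.3 (quasi-likelihood, cell type alone in the design, TMM scaling, mean of at least 10 reads) over all 7 regions, with Benjamini-Hochberg adjustment and a threshold of 0.05. The same was done for reads summed per fragment and per distance bin. Scaled reads were divided by 1.85 and 3.51 for NPC replicates 1 and 2, and by 1.50 and 1 for ES replicates 1 and 2. For residuals, a lowess fit on log10 distance with span 0.3 and median primer effects, in 5 rounds, were subtracted from log2(count + 1). Windows and boundary contrasts used limma 3.58.1, which draws each spread towards that of all windows or positions. DESeq2 1.42.0 was an alternative. The pair, fragment and window tests were also run on simulated counts with planted changes and a single spread shared by all libraries. Boundary contrasts, distance bins and slopes were not checked in that way.

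Named pairs were the 8 of lowest p per direction with reads in every library, and the 8 highest residuals over 100 kb. Named fragments were at most 6 per direction by lowest p. All called windows, boundary maxima of at least 0.3 and the largest gain and loss were named. The region and the rules were chosen with earlier results of these data known. Parts of these rules on genes and peaks could not be applied without coordinates. Blocks, and fragments ranked by called pairs, were described after values were seen.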

Additional observations from a re-analysis of the deposited data

How the results depend on the processing

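No named pair or fragment reversed under any alternative run, while some bins, windows and boundary positions did, among them the called difference at 80 kb and 3 called windows. Library totals in place of TMM moved the median log2 fold change of all tested pairs from 0.12 to −0.28. Named pairs kept their call in 181 of 238 recomputed values and lost it in 57, and named fragments kept it in 119 of 120. Called pairs, 350 as reported, numbered 931 with no count filter, 630 at a mean of at least 50 reads, 886 with DESeq2, 68 with limma, 498 with the replicate block, 553 with the crossed block, 0 with the fragment-wide offset in edgeR or limma (1039 and 1055 at an unadjusted p under 0.05), and 4 to 2614 with 1 library left out. Called fragments, 97 as reported, numbered 59 with library totals, 64 with the replicate block and 44 to 114 with 1 library left out. Called bins, 3 as reported, numbered 0 with library totals (edgeR, 1 at an unadjusted p under 0.05), 1 with the replicate block and 6 with the crossed block. With Nestin totals 1 bin was called, that at 400–600 kb, which was higher in ES cells (−1.09, edgeR adjusted p = 0.0285). Bin calls also changed with 1 library left out. Called windows, 7 as reported, numbered 1 with 40 kb windows, 0 with the authors' ratio, the replicate block and the crossed block (limma, with 51, 38 and 48 at an unadjusted p under 0.05), 15 with a pseudocount of 5, 46 with distance alone, 65 with edgeR on summed counts and 0 to 87 with 1 library left out. Called boundary positions, 56 as reported and 56 with the replicate block, numbered 29 at 80 kb reach, 37 with the authors' ratio and 18 to 61 with 1 library left out. Same-numbered NPC and ES libraries deviated from their group means with a correlation of −0.14 over all tested pairs. With 2 libraries per cell type, this cannot decide whether equal numbers mark a shared culture or batch. The crossed block was added after the data had been seen, as were the authors' ratio and the offset. The share of Nestin reads, NPC minus ES, became −1.27 percentage points without the 3 pairs with most reads. Log2 fold changes of bins reversed with library totals at 50–100 kb (−0.056) and 200–400 kb (−0.024), and with Nestin totals at 50–100 kb (−0.28), 100–200 kb (−0.17), 200–400 kb (−0.27), 600–800 kb (−0.0058) and over 800 kb (−0.11). The 400–600 kb bin became 0.32 without FOR165 REV258 and ranged from −0.81 to 0.18 with 1 library left out. With edgeR on summed counts, 120–180 by 840–900 kb became −0.34, 420–480 kb within itself 0.0088 and 240–300 by 660–720 kb 0.22, and the last became 0.43 with distance alone. Boundary differences reversed at 400 kb with a pseudocount of 5 (0.060), distance alone (0.049) and the authors' ratio (0.11), at 790 kb at 80 kb reach (0.066) and with the authors' ratio (0.037), at 810 kb with distance alone (−0.14) and at 80 kb with the authors' ratio (0.058). With 1 library left out they ranged from −0.028 to 0.018 at 400 kb, −0.14 to 0.013 at 790 kb and −0.083 to 0.17 at 810 kb. The causes of these changes were not tested, except that fewer libraries enter a fit with 1 left out, where the lone library is assumed to vary like the others. At a median of 7 to 12 reads per Nestin pair in a library, counting error limits single pairs.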
